A study of Mus musculus with 12 samples.

Results

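The genes described here make the protein-folding machinery of the endoplasmic reticulum and the unfolded protein response that controls it. They are the 33 genes whose symbols stand in a fixed list of chaperones, disulfide isomerases, co-chaperones, stress sensors, degradation factors and translocon subunits, out of 55487 gene rows in each table. The list was chosen with earlier results of these data known, and all 33 symbols were found. A gene was tested when it reached at least 1 TPM (a transcript level scaled for gene length and library size) in at least 3 of the 12 libraries, which 11917 genes did, 32 of the 33 among them. The exception was Pdia5, a disulfide isomerase gene, which was listed at 0 in all DFO, SA and control libraries and at 0, 0.0892 and 0 TPM in the DTPA libraries.

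The RNA came from G1E-ER4, a single line of mouse erythroid progenitor cells, and the design compares cells short of zinc, of iron or of ALAD activity with untreated cells. The line lacks its own working Gata1 gene and carries GATA1 fused to the hormone-binding part of the estrogen receptor, so that β-estradiol starts erythroid maturation. The DTPA group was given 50 µM DTPA, a chelator that lowers zinc. The DFO group was given 50 µM DFO, an iron chelator, and the SA group 0.2 mM SA, which blocks ALAD, an enzyme of heme and protoporphyrin synthesis. Control cells were given none of these agents. All 4 groups were also given 100 nM β-estradiol for 24 h, with any agent added at the start, and each group holds 3 biological replicates.

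Proteins bound for the cell surface, for secretion or for the organelles of the secretory pathway enter the endoplasmic reticulum through the SEC61 translocon and are folded there by chaperones led by BiP, the product of Hspa5. When unfolded proteins build up, the sensor IRE1, encoded by Ern1, splices Xbp1 mRNA into the form that makes an active transcription factor, ATF6 is cut to release another factor, and PERK slows translation and favours that of ATF4. XBP1 and ATF6 raise chaperone genes and genes of the degradation route that extracts misfolded proteins to the proteasome. An erythroid precursor makes large amounts of globin in the cytosol and sheds most of its secretory organelles as it matures, while its surface proteins still pass through this pathway.

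The tables held 19857418 to 24326305 whole reads per library, recovered from the TPM values and exon lengths, and each tested member had between 136 (Creld2) and 11688 (P4hb) of them in a library. Of 12 erythroid markers 11 were tested and Trim58 was listed at 0; their sum was 44541 to 54328 TPM in DTPA libraries, 29451 to 31836 in DFO libraries, 24384 to 26338 in SA libraries and 39730.1 to 44091 in control libraries. The sum is mostly globin: in DTPA libraries Hbb-bs averaged 26214 TPM, Hba-a1 10152 and Hbb-bt 6002, where control libraries averaged 19234, 11589 and 2684 in that order. Of the 11 with DTPA, 7 were called lower, led by Slc4a1 (-3.95, limma adjusted p = 6.97e-14) and Gata1 (-1.24, adjusted p = 5.6e-12). Alas2 (0.40) and Hbb-bs (0.45) were called higher, and Klf1 and Hbb-bt did not pass. Of all genes 42.1% were lower and 23.5% higher with DTPA. TPM per gene does not separate reads of the GATA1 fusion from reads of the cells' own Gata1 gene. Tfrc and Hba-a1 lost their lower calls, and Klf1 was called higher, after median-of-ratios scaling. The summed TPM of 12 megakaryocyte markers was 37.0 to 46.1 in DTPA libraries, 10.4 to 11.1 in DFO libraries, 8.53 to 10.0 in SA libraries and 8.29 to 9.53 in control libraries. Of these Itgb3, Gp1ba and Gp9 were called higher with DTPA, and Ppbp was at 0 in all libraries. The 14 mast and myeloid markers summed to at most 0.606 TPM in any library, and none was tested. The 14 plasma and lymphoid markers summed to 2.88 to 4.23 TPM in DTPA libraries, 1.09 to 1.54 in DFO libraries, 0.815 to 2.07 in SA libraries and 1.10 to 1.63 in control libraries, with Prdm1 and Cd79a called higher with DTPA. The part of these markers in the results was not tested. Globin genes took 5.34% of all TPM with DTPA, 2.50% with DFO, 2.05% with SA and 3.70% in control, and ribosomal protein genes 12.0%, 9.31%, 9.86% and 8.43% in that order. Since the TPM of a library always add to one fixed total, results are also given after median-of-ratios rescaling, which moved the median log2 fold change of all genes by 0.129 for DTPA, -0.0517 for DFO and -0.0512 for SA. In bulk RNA, fewer cells of a type and less RNA per cell cannot be told apart.

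With DTPA most genes of the folding machinery fell, while 5 genes, from the J protein, sensor and degradation groups, rose. Of 32 tested members 24 were lower and 5 higher than in control at an adjusted p under 0.05, and 3 did not pass. This is set against 65.5% of all 11917 genes called, 42.1% lower and 23.5% higher. The median log2 fold change was -0.20 over the members and -0.11 over all genes. The test was limma on log2(TPM + 1), with Benjamini-Hochberg adjustment over all tested genes, and every fold change below is on that scale. The libraries of the DTPA group lay wholly below those of control for 24 members and wholly above for 5, where 69.6% of all genes had libraries that did not overlap. Under median-of-ratios scaling 15 members were lower and 8 higher, beside 32.2% and 32.5% of all genes. The 5 members that rose were Dnajb9, Edem2, Herpud1, Ern1 and Derl1. These 5 and 15 of the 24 that fell kept their call under every rescaling, every other setting tried and with any single library left out.

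**Figure D1:**
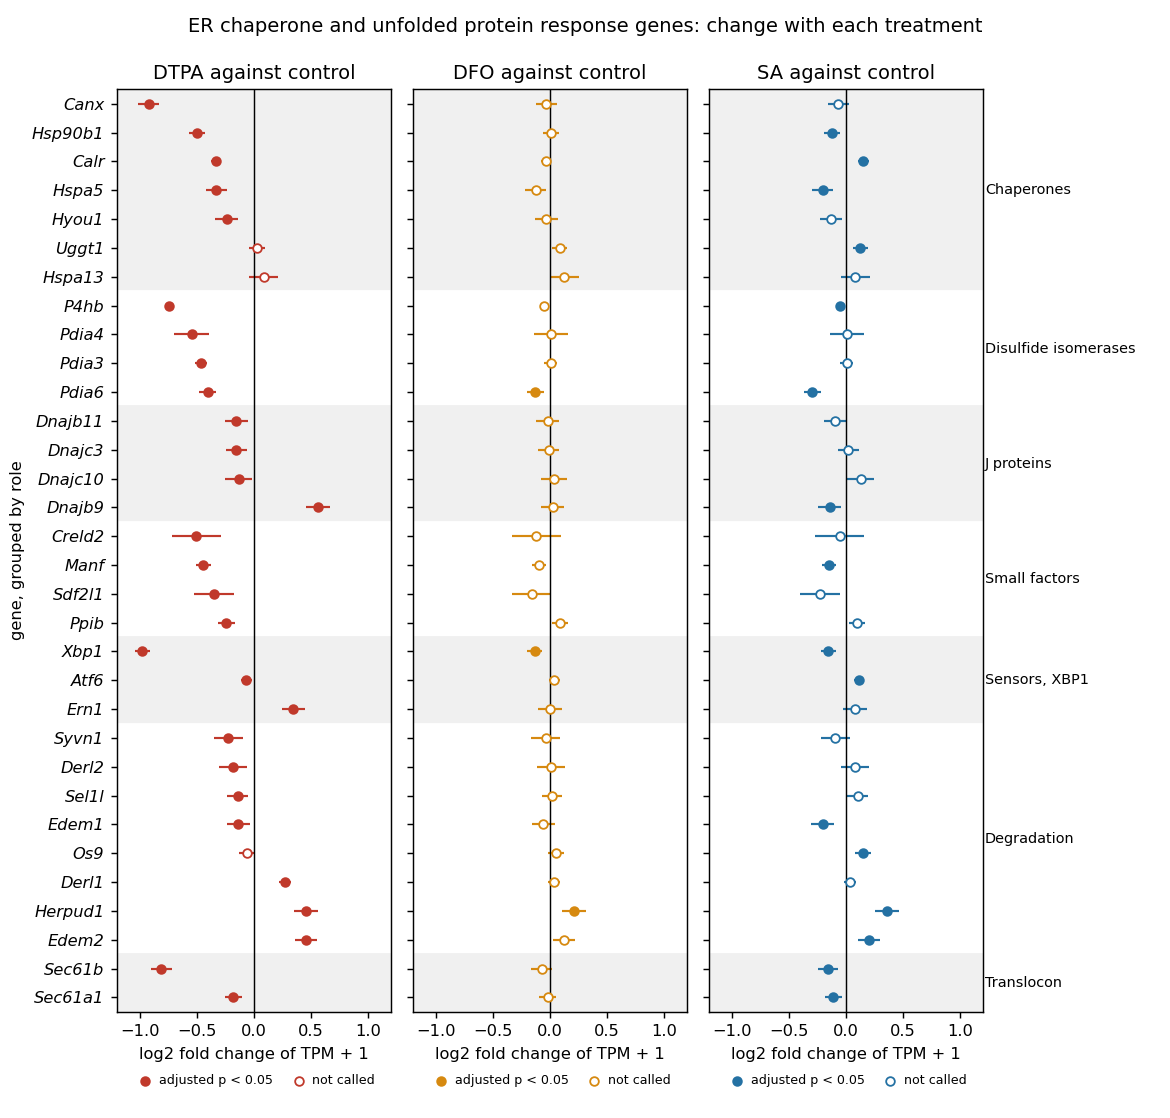
Log2 fold change of TPM + 1 (x axis) of the 32 tested members (y axis, grouped by role) with DTPA, DFO and SA, each against control; lines are 95% confidence intervals and filled points have an adjusted p under 0.05. Filled points below 0 number 24 with DTPA, 2 with DFO and 10 with SA (15, 6 and 14 after median-of-ratios scaling, when Atf6 with DTPA lies above 0).

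DFO gave few calls among these genes. Herpud1 rose, and Xbp1 and Pdia6 fell, 3 of 32 members beside 10.7% of all genes called (8.39% higher, 2.28% lower). The members' median log2 fold change was -0.01, against 0.05 over all genes. DFO libraries lay apart from control libraries for 14 members, 5 above and 9 below, where 30.2% of all genes did so. Under median-of-ratios scaling none was higher and 6 were lower, beside 3.56% and 5.35% of all genes, the added calls being Calr, Hspa5, Manf and P4hb.

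SA moved more members, in both directions. Herpud1, Edem2, Calr, Os9, Uggt1 and Atf6 rose, and Pdia6, Hspa5, Edem1, Sec61b, Xbp1, Manf, Dnajb9, Hsp90b1, Sec61a1 and P4hb fell. Of all genes 22.2% were called, 15.4% higher and 6.75% lower, against 6 higher and 10 lower of 32 members. The median log2 fold change was -0.02 over the members and 0.05 over all genes. SA libraries lay above control for 10 members and below for 13, where 38.5% of all genes lay apart. Each of the falls was small, with Pdia6 at -0.29 the farthest from 0. Under median-of-ratios scaling 4 members were higher and 14 lower, beside 9.8% and 13.1% of all genes. The added lower calls were Canx, Hyou1, Dnajb11 and Sdf2l1, and the rises of Os9 and Uggt1 no longer passed. The 3 comparisons share the same 3 control libraries.

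Some of these genes carry the ER stress response element (ERSE) at their start, the site that ATF6 and XBP1 bind together with the CCAAT-binding factor NF-Y. Promoter windows of 250 bases before to 50 bases after the RefSeq start (GRCm38.p6) were on hand for 27 of the 33 members, without Hspa13, Hyou1, Manf, Atf6, Derl1 and Sec61a1. The letters CCAAT, 9 bases of any kind and CCACG were searched on both strands and found in 8 of the 27 (29.6%), namely Hspa5, Calr, Hsp90b1, Canx, Pdia6, Dnajc3, Creld2 and Syvn1, against 37 of 27025 genes in the table (0.137%). The 4 of these whose transcripts changed most with DTPA are printed 5′ to 3′ along the gene's own strand, with the fixed letters of the element in capitals. In Creld2, on the plus strand at chr15:88819490-88819568, the element reads on the opposite strand. Hsp90b1, on the minus strand at chr10:86705503-86705686, holds 2 copies, the second on the opposite strand. Canx lies on the minus strand at chr11:50325770-50325848, and Pdia6 on the plus strand at chr12:17266461-17266539.
Canx: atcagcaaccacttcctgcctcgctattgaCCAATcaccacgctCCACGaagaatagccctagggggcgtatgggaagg
Creld2: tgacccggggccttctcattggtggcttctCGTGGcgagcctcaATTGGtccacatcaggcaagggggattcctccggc
Hsp90b1: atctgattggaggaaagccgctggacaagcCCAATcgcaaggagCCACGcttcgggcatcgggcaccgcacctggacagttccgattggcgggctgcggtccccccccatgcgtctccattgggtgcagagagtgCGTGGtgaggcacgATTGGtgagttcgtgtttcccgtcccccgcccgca
Pdia6: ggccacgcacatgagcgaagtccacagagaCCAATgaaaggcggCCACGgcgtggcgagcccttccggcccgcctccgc

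Counted from the start, the elements lie from base -212 in Hsp90b1 to base -26 in Syvn1. With DTPA all 8 were called lower, with log2 fold changes from -0.92 to -0.15 and a median of -0.37; Syvn1 and Dnajc3 lost the call on rescaling. The 18 tested members with a window and no such match ran from -0.98 to 0.56 with a median of -0.15, 12 lower and 4 higher, beside 42.1% of all genes lower and 23.5% higher. Under median-of-ratios scaling 6 of the 8 were lower and none higher (median -0.23). The 18 then held 7 lower and 5 higher (median -0.02), beside 32.2% and 32.5% of all genes. With DFO the 8 had a median of -0.04 and 1 call, Pdia6 lower, beside 8.39% of all genes higher and 2.28% lower. With SA they had a median of -0.08, Calr being higher and Hspa5, Hsp90b1 and Pdia6 lower. The shares of all genes with SA were 15.4% higher and 6.75% lower. Outside the members 29 genes held the element and 4 of them were tested. With DTPA 2 of these were lower (1700122E12Rik and Hnrnpa3), and Alg12 (-0.0007) and Pan2 (-0.05) did not pass. The shorter ERSE-II, ATTGG, any 1 base and CCACG, shares its last letters with the ERSE and was found in Herpud1 and Dnajb11, against 12 genes in all. The XBP1 element TGACGTGG was found in none of the 27 windows and in 193 genes of the table (0.714%). The members were picked as genes of folding and the unfolded protein response, so their share with the element is no independent result. These matches are a description of the letters in the windows, and any part of the element in the changes was not tested.

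**Figure D2:**
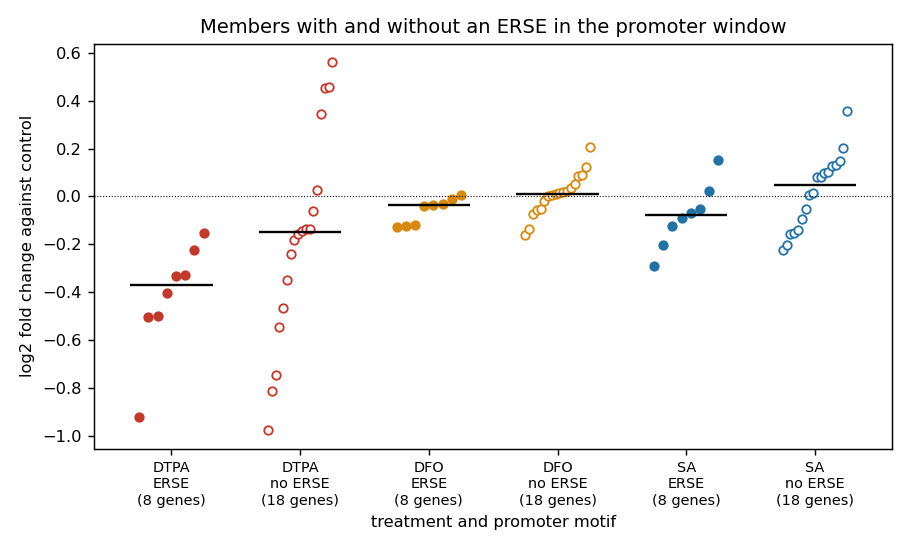
Log2 fold change against control (y axis) of tested members with an exact ERSE match in the promoter window (filled, 8 genes) and without an exact match (open, 18 genes), for each treatment (x axis); bars are medians. Herpud1 and Dnajb11, among the open points, hold an ERSE-II. With DTPA all 8 filled points lie between -0.92 and -0.15, and open points reach from -0.98 to 0.56.

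Chaperones made up the largest part of the members' transcripts by TPM. Their 7 genes summed to 836, 861 and 868 TPM in DTPA libraries, 1164, 1163 and 1151 in DFO libraries, 1186, 1140 and 1214 in SA libraries, and 1229, 1147 and 1183 in control libraries. The DTPA sums lay below all others, and the rest overlapped. Of the 7, 5 fell with DTPA and 2 did not pass, beside 42.1% of all genes lower and 23.5% higher. Under rescaling those same 5 stayed lower while Uggt1 and Hspa13 were called higher. After median-of-ratios scaling 32.2% of all genes were lower and 32.5% higher.

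Canx encodes calnexin, the membrane-bound lectin chaperone that holds newly glycosylated proteins (gene at chr11:50293961-50325673, mm10). It had 147, 155 and 158 TPM in DTPA libraries, 286, 287 and 283 in DFO libraries, 279, 265 and 291 in SA libraries, and 308, 277 and 291 in control libraries. The DTPA libraries stood alone, and DFO and SA libraries overlapped control. Canx fell with DTPA by 0.92 on the log2 scale (SE 0.042, adjusted p = 2.81e-09), which is a fall by 47.4% in TPM.

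Calr encodes calreticulin, the soluble partner of calnexin that also binds calcium. It had 327, 335 and 332 TPM in DTPA libraries, 406, 411 and 405 in DFO libraries, 469, 453 and 473 in SA libraries, and 426, 413 and 415 in control libraries. No group overlapped another, with DFO lying just under control and SA above it. Its log2 fold change was -0.33 (SE 0.021, adjusted p = 4.09e-08) with DTPA and 0.15 (SE 0.021, adjusted p = 0.000293) with SA, a fall with one agent and a rise with the other. With DFO it was -0.04 (adjusted p = 0.306), and -0.09 (adjusted p = 0.0096) after median-of-ratios scaling. DTPA against SA gave -0.49 (adjusted p = 1.43e-09), the widest gap of any chaperone member but Canx. Uggt1 makes the enzyme that returns misfolded glycoproteins to calnexin and calreticulin, and it had 33.005 to 34.1 TPM with DTPA against 32.2 to 33.2 TPM in control. With SA it had 35.5 to 36.4 TPM and rose by 0.13 (adjusted p = 0.0122), a call lost on median-of-ratios scaling (adjusted p = 0.0658).

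Hspa5 encodes BiP, the central chaperone and the protein that keeps the sensors silent (chr2:34771970-34777547). It had 129, 131 and 137 TPM in DTPA libraries, 150.0, 154 and 154 in DFO libraries, 147, 137 and 149 in SA libraries, and 174, 158 and 168 in control libraries. All 9 treated libraries lay below the lowest control library. The fall was -0.33 (SE 0.040, adjusted p = 1.86e-05) with DTPA and -0.20 (adjusted p = 0.00407) with SA; with DFO the value was -0.13 (adjusted p = 0.0735), and -0.18 (adjusted p = 0.0119) after median-of-ratios scaling. Without control replicate 2 the DFO value passed (adjusted p = 0.0325).

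Hsp90b1 encodes GRP94, the HSP90 of this organelle. It had 163, 168 and 172 TPM in DTPA libraries, 245, 237 and 234 in DFO libraries, 217, 213 and 224 in SA libraries, and 247, 229 and 237 in control libraries. DFO libraries overlapped control, SA libraries lay just below it and DTPA libraries far below. The log2 fold change was -0.50 (SE 0.032, adjusted p = 5.67e-08) with DTPA and -0.12 (adjusted p = 0.018) with SA, and the SA call was lost without SA replicate 1 (adjusted p = 0.0516), SA replicate 2 (0.0685) or control replicate 1 (0.0637). The BiP exchange factor gene Hyou1 fell with DTPA by 0.24 (adjusted p = 0.000622), to 22.2 to 23.9 TPM against 26.2 to 28.4 TPM in control. Hspa13, a small HSP70 relative, had 13.0 to 14.1 TPM with DTPA against 12.1 to 13.2 TPM in control, with a log2 fold change of 0.09 (adjusted p = 0.212) that became 0.21 (adjusted p = 0.00342) under median-of-ratios scaling.

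Disulfide isomerases, which form and shuffle the bonds between cysteines, fell as a group with DTPA. The 5 genes, Pdia5 at or near 0 included, summed to 535, 546 and 541 TPM in DTPA libraries, 816, 814 and 824 in DFO libraries, 810.0, 812 and 814 in SA libraries, and 844, 832 and 848 in control libraries. All 4 tested genes were called lower with DTPA under every setting tried. On deposited TPM 1 was called lower with DFO and 2 with SA, not all of which held under every setting. These counts stand beside 42.1% of all genes lower with DTPA, 2.28% with DFO and 6.75% with SA.

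P4hb encodes protein disulfide isomerase itself. By TPM it was the most abundant member in DFO, SA and control libraries, and stood below Calr in DTPA libraries. P4hb had 318, 319 and 321 TPM in DTPA libraries, 513, 515 and 523 in DFO libraries, 509, 522 and 520.3 in SA libraries, and 532, 536 and 541 in control libraries. Treated libraries lay below control in all 3 comparisons, by a wide margin with DTPA alone. The fall was -0.75 (SE 0.016, adjusted p = 4.76e-12) with DTPA and -0.05 (SE 0.016, adjusted p = 0.0379) with SA. With DFO the value was also -0.05 (adjusted p = 0.0576). The SA call was lost without SA replicate 1 (adjusted p = 0.137), SA replicate 3 (0.0669), DTPA replicate 2 (0.0509), control replicate 2 (0.0799) or control replicate 3 (0.122).

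Pdia3 encodes ERp57, which works on glycoproteins held by calnexin and calreticulin. It had 157, 165 and 157 TPM in DTPA libraries, 222, 219 and 223 in DFO libraries, 225, 217 and 222 in SA libraries, and 223, 215 and 223 in control libraries. The DTPA libraries lay below all others and the rest overlapped, the fall being -0.46 (SE 0.025, adjusted p = 1.19e-08), and the 95% intervals with DFO and SA both ran from -0.05 to 0.06. Pdia4, encoding ERp72, had a lower level. It stood at 15.4, 17.2 and 17.2 TPM in DTPA libraries, 25.4, 25.4 and 24.0 in DFO libraries, 26.3, 26.0 and 22.5 in SA libraries, and 26.3, 23.2 and 24.7 in control libraries. DFO and SA libraries overlapped control, and the fall with DTPA was -0.55 (SE 0.068, adjusted p = 2.08e-05).

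Pdia6 encodes P5, an isomerase that associates with BiP, and it was lower than control with each agent. It had 44.1, 45.1 and 45.5 TPM in DTPA libraries, 55.1, 55.3 and 53.4 in DFO libraries, 49.1, 47.4 and 49.5 in SA libraries, and 62.8, 57.2 and 59.5 in control libraries. No library of one group reached into another, the order being DTPA, SA, DFO and control from low to high. The log2 fold changes were -0.41 (adjusted p = 7.17e-07) with DTPA, -0.13 (adjusted p = 0.0367) with DFO and -0.29 (adjusted p = 0.000128) with SA, each with an SE of 0.034. The DFO call was lost without any DFO library (adjusted p from 0.0677 to 0.114), without SA replicate 1 (0.0507) and without control replicate 1 (0.106) or 3 (0.0837).

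**Figure D3:**
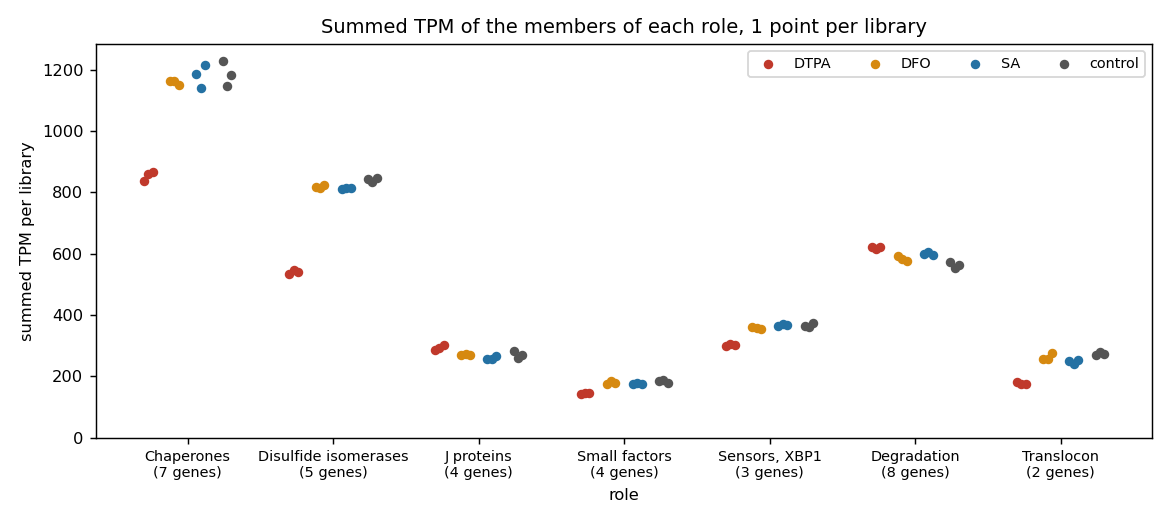
Summed TPM per library (y axis) of the members of each role (x axis), 3 libraries for each of DTPA, DFO, SA and control. DTPA sums lie lowest for chaperones (836 to 868) and disulfide isomerases (535 to 546) and highest for J proteins (286 to 301) and degradation factors (616 to 623).

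J proteins bring clients to BiP and trigger its ATPase. Dnajb9, encoding ERdj4, which also helps BiP keep IRE1 silent, was the member that rose most with DTPA (chr12:44205559-44210326). It had 127, 126 and 136 TPM in DTPA libraries, 91.3, 86.8 and 88.6 in DFO libraries, 75.7, 80.9 and 80.9 in SA libraries, and 93.7, 84.4 and 84.6 in control libraries. DTPA libraries lay above all others, SA libraries below all others, and DFO overlapped control. The log2 fold change was 0.56 (SE 0.046, adjusted p = 5.84e-07) with DTPA and -0.14 (adjusted p = 0.0488) with SA. DTPA against SA gave 0.70 (adjusted p = 7.71e-08), a TPM 63.6% higher. The SA call was lost in 10 of the 12 fits with a library left out (adjusted p from 0.0529 to 0.16), where the log2 fold change ran from -0.17 to -0.09.

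The other J protein genes went the other way with DTPA by small amounts. Dnajb11 fell by 0.16 (adjusted p = 0.011), Dnajc3 by 0.15 (adjusted p = 0.0057) and Dnajc10, the disulfide reductase ERdj5, by 0.13 (adjusted p = 0.0403). All of these calls were lost under each rescaling, where the values lay within 0.04 of 0. Their levels with DTPA were 83.1 to 89.9, 49.3 to 53.6 and 25.6 to 28.2 TPM, against 90.6 to 98.8, 54.9 to 58.2 and 28.3 to 31.1 TPM in control. On deposited TPM Dnajc10 also lost the call without DTPA replicate 1 (adjusted p = 0.146) or 2 (0.0762), DFO replicate 2 (0.0506), SA replicate 1 (0.0522) or control replicate 1 (0.144) or 2 (0.0791). With DFO and SA none of Dnajb11, Dnajc3 and Dnajc10 passed the test on deposited TPM. Dnajb11 was called lower with SA under median-of-ratios and trimmed-mean scaling (as far as -0.15, lowest adjusted p = 0.0336).

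All 4 small folding factors fell with DTPA, under each rescaling too. This stands beside 42.1% of all genes lower on deposited TPM and 32.2% after median-of-ratios scaling. Manf encodes a secreted and luminal factor that binds BiP. It had 28.5, 28.5 and 28.0 TPM in DTPA libraries, 37.3, 36.2 and 35.5 in DFO libraries, 34.8, 35.3 and 34.8 in SA libraries, and 38.2, 39.9 and 38.5 in control libraries. All treated libraries lay below control, with log2 fold changes of -0.44 (SE 0.029, adjusted p = 6.51e-08) for DTPA, -0.10 (adjusted p = 0.0576) for DFO and -0.15 (adjusted p = 0.00353) for SA. The DFO value passed under median-of-ratios scaling (-0.15, adjusted p = 0.0126). Manf overlaps Rbm15b on the same strand and Dcaf1 on the other, so its count is uncertain where those genes share reads with it.

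Creld2 encodes an isomerase-like protein named for its EGF-like domains. It had 14.0, 19.4 and 14.8 TPM in DTPA libraries, 20.6, 21.2 and 21.4 in DFO libraries, 22.1, 21.5 and 22.7 in SA libraries, and 25.0, 22.1 and 21.9 in control libraries. DTPA replicate 2 stood nearest to control, yet no DTPA library reached it, and the fall was -0.50 (SE 0.097, adjusted p = 0.000674). DFO gave -0.12 (adjusted p = 0.495) and SA -0.05 (adjusted p = 0.75). Sdf2l1, part of the complex that stabilises J protein clients, fell with DTPA by 0.35 (SE 0.079, adjusted p = 0.00207), to 34.7 to 42.9 TPM against 46.3 to 54.8 TPM in control. Ppib, encoding cyclophilin B, a prolyl isomerase, fell by 0.24 (adjusted p = 3.88e-05), to 58.5 to 62.9 TPM against 71.5 to 73.8 TPM in control. Its DFO and SA libraries lay above control at 74.9 to 80.0 and 77.4 to 78.3 TPM, with log2 fold changes of 0.09 (adjusted p = 0.104) and 0.10 (adjusted p = 0.0517); without DTPA replicate 3, DFO replicate 1 or DFO replicate 2 the SA value passed (adjusted p = 0.026, 0.044 and 0.0451).

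The sensor genes and Xbp1 did not move together with DTPA. Xbp1, the transcription factor gene downstream of IRE1 (chr11:5520659-5525893), had 75.3, 75.6 and 76.8 TPM in DTPA libraries, 133, 141 and 136 in DFO libraries, 133, 138 and 135 in SA libraries, and 145, 152 and 154 in control libraries. All 9 treated libraries lay below control, and the DTPA libraries were far below the other 6. This was the largest log2 fold change of any member in any comparison with control, -0.98 (SE 0.028, adjusted p = 5.54e-11), and it ran from -0.86 to -0.83 under rescaling. With DFO it was -0.13 (adjusted p = 0.012) and with SA -0.15 (adjusted p = 0.00267). The DFO value no longer passed when the fit held the 6 DFO and control libraries alone (adjusted p = 0.0564). TPM per gene does not separate spliced from unspliced Xbp1 mRNA.

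Ern1, encoding the kinase and nuclease IRE1 that splices Xbp1 mRNA (chr11:106394650-106487852), moved the opposite way. It had 79.3, 82.4 and 79.4 TPM in DTPA libraries, 68.7, 61.0 and 60.0 in DFO libraries, 67.8, 66.8 and 65.8 in SA libraries, and 63.7, 60.5 and 65.1 in control libraries. DTPA libraries lay above every other library. The rise was 0.34 (SE 0.047, adjusted p = 4.26e-05), against 0.00 (adjusted p = 0.994) with DFO and 0.08 (adjusted p = 0.248) with SA. The DFO value turned to -0.05 (adjusted p = 0.499) under median-of-ratios scaling. On the per-length TPM scale, Ern1 mRNA with DTPA stood at 80.4 ± 1.81 and Xbp1 mRNA at 75.9 ± 0.796 TPM (SD, n = 3 each), where control had 63.1 ± 2.36 TPM of Ern1 and 150.4 ± 4.49 TPM of Xbp1.

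Atf6, the sensor released by cleavage in the Golgi, had the smallest log2 fold change of the 3 with DTPA. It had 145, 146 and 147 TPM in DTPA libraries, 159, 156 and 157 in DFO libraries, 164, 165 and 166 in SA libraries, and 156, 149 and 154 in control libraries. DTPA libraries lay just below control, SA libraries above it, and DFO overlapped it. The rise with SA was 0.11 (SE 0.020, adjusted p = 0.00222) and held under every setting. The DTPA value was -0.07 (adjusted p = 0.0129) on deposited TPM and turned to 0.07 (adjusted p = 0.00244) under median-of-ratios scaling, so that its direction with DTPA depends on the scaling; without control replicate 1 the deposited values gave -0.05 (adjusted p = 0.0553).

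**Figure D4:**
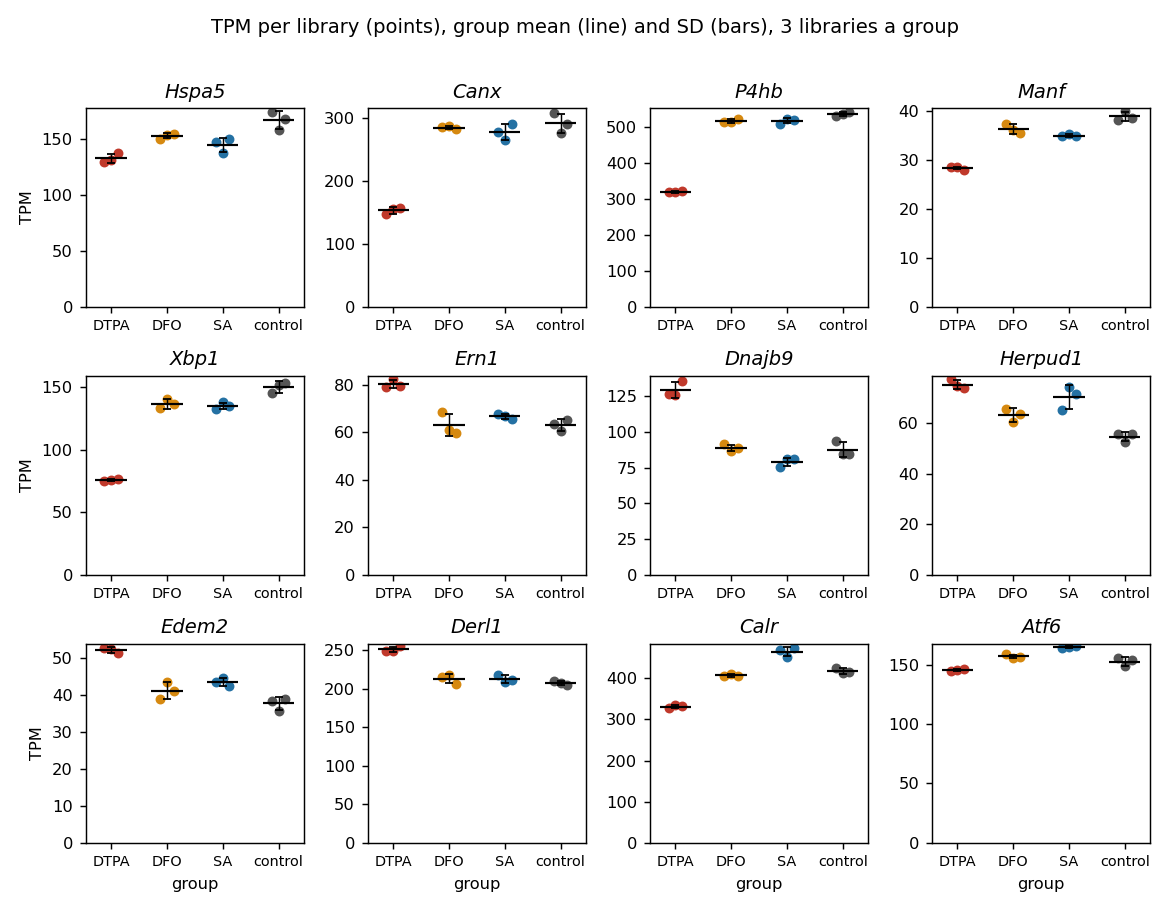
TPM (y axis, from 0) in each of the 12 libraries for 12 members, by group (x axis); points are libraries, horizontal lines group means and bars SD over 3 libraries. Canx, P4hb, Manf and Xbp1 stand lowest with DTPA, while Ern1, Dnajb9, Edem2 and Derl1 stand above every other group there.

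Degradation factors, the largest group with 8 genes, held the most rises by count. The 8 genes summed to 623, 616 and 622 TPM in DTPA libraries, 591, 583 and 575 in DFO libraries, 598, 604 and 596 in SA libraries, and 572, 554 and 562 in control libraries. Each treated group lay above control on deposited TPM, and these sums were not rescaled. With DFO, median-of-ratios scaling left no member called higher. With DTPA 3 rose, 4 fell and 1 was not called, beside 23.5% of all genes higher and 42.1% lower. After median-of-ratios scaling 3 were higher and none lower, beside 32.5% and 32.2% of all genes.

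Herpud1 encodes HERP, which organises the degradation complex in the membrane (chr8:94386438-94395377). It was the one member called higher with all 3 agents. It had 77.4, 74.7 and 73.9 TPM in DTPA libraries, 65.9, 60.6 and 63.7 in DFO libraries, 65.4, 74.6 and 71.5 in SA libraries, and 55.7, 52.7 and 55.8 in control libraries. All 9 treated libraries lay above control, and SA replicate 2 reached into the DTPA range. The rises were 0.45 (adjusted p = 4.67e-06) with DTPA, 0.21 (adjusted p = 0.0182) with DFO and 0.36 (adjusted p = 0.000289) with SA, each with an SE of 0.048. The DFO rise no longer passed under median-of-ratios scaling (0.15, adjusted p = 0.0663) or without DFO replicate 1 (0.0685), DFO replicate 3 (0.0561) or control replicate 2 (0.0679).

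Edem2 encodes a protein that starts mannose trimming on glycoproteins marked for degradation. It had 52.7, 52.4 and 51.3 TPM in DTPA libraries, 39.1, 43.6 and 41.0 in DFO libraries, 43.6, 44.5 and 42.6 in SA libraries, and 38.5, 35.7 and 39.0 in control libraries. DTPA libraries lay above all others and SA libraries above control, with rises of 0.46 (SE 0.043, adjusted p = 1.96e-06) and 0.20 (adjusted p = 0.00637). DFO gave 0.12 (adjusted p = 0.0973). Its relative Edem1 did not share the rise. Edem1 had 30.3, 30.6 and 31.1 TPM in DTPA libraries, 32.3, 32.5 and 32.7 in DFO libraries, 26.8, 30.3 and 30.8 in SA libraries, and 33.9, 34.3 and 33.2 in control libraries. No treated library reached control, and SA replicate 1 was the lowest of the 12. The fall with SA was -0.20 (SE 0.045, adjusted p = 0.00787), lost in the fit of the 6 SA and control libraries alone (adjusted p = 0.0502). With DTPA it was -0.14 (adjusted p = 0.0185), lost without DTPA replicate 1 (0.0533) or control replicate 2 (0.0547) and under each rescaling, where the trimmed-mean scaling put it at 0.0031.

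Derl1, a channel-forming derlin, rose with DTPA by 0.27 (SE 0.024, adjusted p = 9.12e-07), to 249 to 255 TPM against 205 to 210.0 TPM in control. Derl2, of the same family, fell by 0.18 (adjusted p = 0.0141), to 12.8 to 13.4 TPM against 14.5 to 15.2 TPM in control, and lost the call under each rescaling (-0.06, adjusted p = 0.43, with median-of-ratios scaling). Derl1 was the more abundant of the pair in every library.

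Sel1l and Syvn1 encode the adaptor and the ubiquitin ligase HRD1 at the core of the degradation complex. Sel1l had 25.3, 24.8 and 26.6 TPM in DTPA libraries, 29.6, 27.4 and 29.3 in DFO libraries, 30.2, 30.4 and 31.0 in SA libraries, and 29.5, 27.6 and 28.0 in control libraries. DTPA libraries lay below control and SA libraries above it. The DTPA fall of -0.14 (SE 0.041, adjusted p = 0.0086) was -0.01 (adjusted p = 0.782) under median-of-ratios scaling, and SA gave 0.10 (adjusted p = 0.0969). Syvn1 had 41.9, 46.9 and 41.1 TPM in DTPA libraries, 50.4, 45.7 and 52.0 in DFO libraries, 48.5, 48.8 and 45.4 in SA libraries, and 49.6, 52.6 and 49.9 in control libraries. DTPA and SA libraries lay below control, and DFO libraries overlapped it. Its DTPA fall of -0.22 (SE 0.058, adjusted p = 0.00487) was -0.09 (adjusted p = 0.193) under median-of-ratios scaling.

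Os9 encodes a lectin that reads the trimmed sugars. It had 133, 125 and 129.9 TPM in DTPA libraries, 144, 139.7 and 136 in DFO libraries, 149, 152 and 149 in SA libraries, and 139.8, 129 and 136 in control libraries. DTPA and DFO libraries overlapped control and SA libraries lay above it. The rise with SA was 0.15 (SE 0.033, adjusted p = 0.00763), and 0.10 (adjusted p = 0.0518) under median-of-ratios scaling. With DTPA the value was -0.06 (adjusted p = 0.128), which became -0.09 (adjusted p = 0.0275) without control replicate 2 and 0.07 (adjusted p = 0.0583) under median-of-ratios scaling.

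The translocon subunits were lower with DTPA and with SA, beside 42.1% and 6.75% of all genes. Sec61b, the small β subunit, had 122, 115 and 116 TPM in DTPA libraries, 191, 190.1 and 210.2 in DFO libraries, 187, 181 and 189 in SA libraries, and 200.4, 216 and 205 in control libraries. DFO replicate 3 fell inside the control range, and all other treated libraries lay below it. The fall was -0.81 (SE 0.042, adjusted p = 7.87e-09) with DTPA and -0.16 (adjusted p = 0.0204) with SA, the SA call being lost without SA replicate 2 (adjusted p = 0.0732) or control replicate 2 (0.0766). Sec61a1, the subunit that forms the channel, fell by 0.18 (adjusted p = 0.000526) with DTPA, to 58.7 to 59.5 TPM against 64.6 to 68.7 TPM in control. That call was lost under each rescaling (-0.05, adjusted p = 0.214, with median-of-ratios scaling). Its SA value of -0.11 (adjusted p = 0.0393) was lost in 8 of the 12 fits with a library left out (adjusted p from 0.0505 to 0.14).

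**Figure D5:**
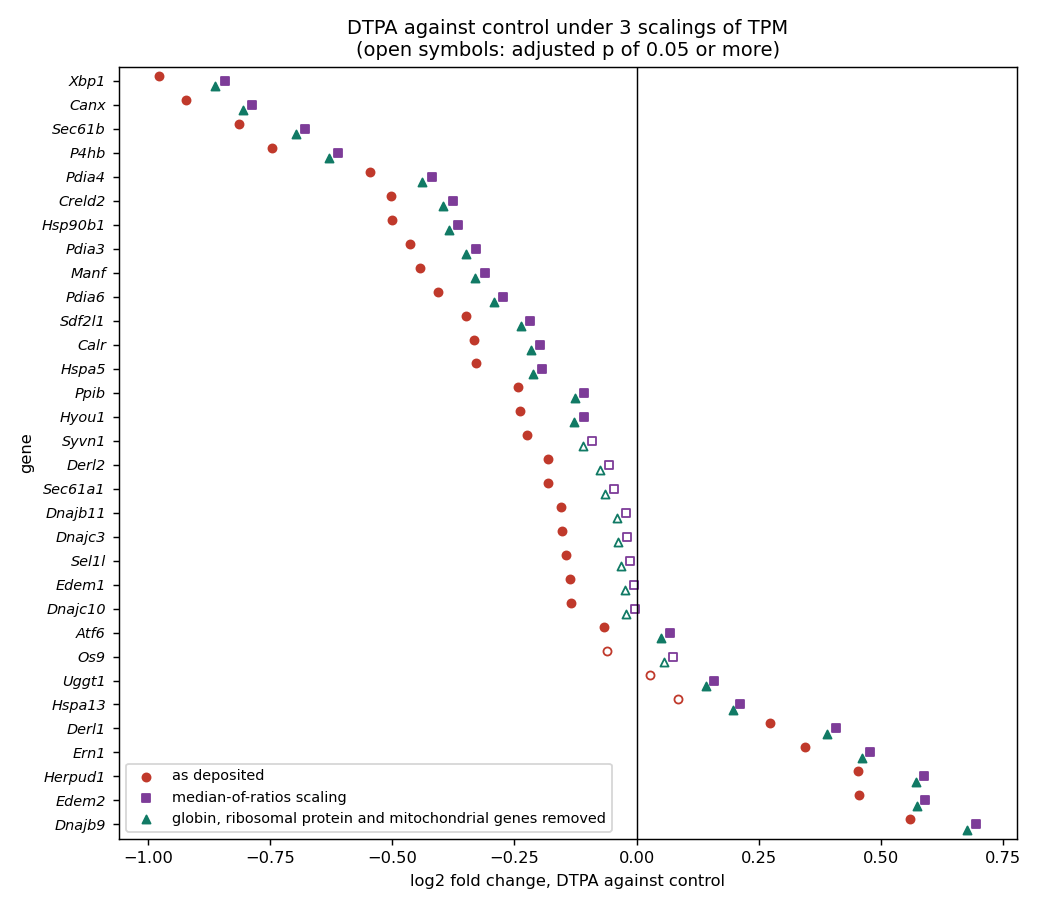
Log2 fold change with DTPA against control (x axis) of the 32 tested members (y axis) on deposited TPM, after median-of-ratios scaling, and with globin, ribosomal protein and mitochondrially encoded genes removed; open symbols have an adjusted p of 0.05 or more. Xbp1, Canx, Sec61b and P4hb stay at the low end and Dnajb9, Edem2, Herpud1, Ern1 and Derl1 at the high end, while Atf6 and Os9 cross 0.

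The agents were also compared with one another. DTPA against DFO called 23 members lower and 5 higher, beside 65.9% of all genes (46.4% lower, 19.6% higher), with Hspa13, Uggt1, Edem1 and Sdf2l1 not passing. DTPA against SA called 20 lower and 4 higher, beside 67.1% of all genes (47% lower, 20.1% higher). Dnajb9, Ern1, Edem2 and Derl1 were higher with DTPA in both, and Herpud1 was higher against DFO (0.25, adjusted p = 0.000695) but not past the threshold against SA (0.10, 95% interval -0.01 to 0.20, adjusted p = 0.097). Xbp1 with DTPA had a log2 fold change of -0.84 (adjusted p = 2.19e-10) against DFO and -0.82 (adjusted p = 2.39e-10) against SA. Under median-of-ratios scaling the counts became 11 lower and 8 higher against DFO, beside 31.8% and 31.9% of all genes, and 11 lower and 11 higher against SA, beside 32.7% and 31.8%. DFO and SA differed for 5 members, beside 13.5% of all genes (7.22% higher, 6.3% lower). Dnajb9 (0.17, adjusted p = 0.0382), Pdia6 (0.16, adjusted p = 0.00928) and Hsp90b1 (0.13, adjusted p = 0.0215) were higher with DFO, and Calr (-0.19, adjusted p = 0.00013) and Atf6 (-0.07, adjusted p = 0.0378) were lower. These comparisons and those with control share libraries.

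The genes of the pathway outside the 33 were read from 7 lists of 141 genes, of which 120 were tested. With DTPA 24 were higher and 77 lower (20% and 64.2%, beside 23.5% and 42.1% of all genes). With DFO 10 were higher and 4 lower (8.33% and 3.33%, beside 8.39% and 2.28%), and with SA 15 were higher and 15 lower (12.5% each, beside 15.4% and 6.75%). After median-of-ratios scaling 32 were higher and 57 lower with DTPA (26.7% and 47.5%, beside 32.5% and 32.2% of all genes). The same scaling gave 4 higher and 16 lower with DFO (3.33% and 13.3%, beside 3.56% and 5.35%), and 11 higher and 32 lower with SA (9.17% and 26.7%, beside 9.8% and 13.1%). The median log2 fold change with DTPA was -0.21 over these genes, against -0.11 over all genes.

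Of 7 tested genes of the PERK arm 3 rose and none fell with SA, 2 rose and none fell with DFO, and 2 rose and 4 fell with DTPA. After median-of-ratios scaling the DTPA count turned to 3 higher and 2 lower, and the DFO and SA counts stayed as they were. Of all genes on deposited TPM, 23.5% were higher and 42.1% lower with DTPA, 8.39% and 2.28% with DFO, and 15.4% and 6.75% with SA. Ddit3, encoding the stress factor CHOP, had 547, 553 and 545 TPM in SA libraries, 401, 394 and 408 in DFO libraries, 345, 346 and 345 in DTPA libraries, and 328, 341 and 327 in control libraries. Its rises were 0.72 (adjusted p = 5.5e-09) with SA, 0.27 (adjusted p = 2.44e-05) with DFO and 0.06 (adjusted p = 0.0289) with DTPA. Atf4, the factor whose translation rises when eIF2α is phosphorylated, rose to 149 ± 3.71 TPM with SA and to 122 ± 2.15 TPM with DFO, against 99.9 ± 4.43 TPM in control (SD, n = 3 each), with log2 fold changes of 0.58 (adjusted p = 6.79e-07) and 0.28 (adjusted p = 0.000393). With DTPA it had 101 ± 2.00 TPM and 0.01 (adjusted p = 0.732), or 0.15 (adjusted p = 0.00162) under median-of-ratios scaling. Trib3, an ATF4 and CHOP target, rose to 26.1 ± 0.731 TPM with SA against 11.0 ± 1.60 TPM in control (1.18, adjusted p = 9.41e-06), while its DTPA value of -0.25 (adjusted p = 0.04) lost the call under each rescaling. Eif2ak3, encoding PERK, fell with DTPA by 0.39 (adjusted p = 0.0006). Ppp1r15a, encoding the phosphatase subunit GADD34, fell with DTPA by 0.22 (adjusted p = 3.51e-07), and Nck1, an adaptor that limits eIF2α phosphorylation, rose by 0.39 (adjusted p = 7.16e-06).

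Other folding genes included the largest change of the pathway lists. Pdia2, an isomerase gene, had 101, 105 and 103 TPM in DTPA libraries, 347, 348 and 356 in DFO libraries, 427, 469 and 449.6 in SA libraries, and 359, 394 and 377 in control libraries. It fell with DTPA by 1.86 (adjusted p = 3.04e-12) and rose with SA by 0.25 (adjusted p = 0.000747). Of the 21 tested genes of this list 6 rose and 9 fell with DTPA, with Txndc12 (0.67) and Sdf2 (0.42) at the upper end and Sumf2 (-0.51) after Pdia2 at the lower. The balance turned to 10 higher and 6 lower after median-of-ratios scaling, and was 6 and 6 with globin, ribosomal protein and mitochondrially encoded genes removed. Of all genes 23.5% were higher and 42.1% lower as deposited, and 32.5% and 32.2% after median-of-ratios scaling. With SA the prolyl hydroxylase subunit gene P4ha1 fell (-0.28), and with DFO Txndc12 rose (0.23). Erp29, a luminal escort protein gene, was called higher with each agent, at 67.0 ± 1.63 TPM with DTPA, 64.4 ± 0.900 with DFO and 69.8 ± 0.823 with SA, against 53.4 ± 1.52 TPM in control (SD, n = 3 each).

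In the translocation and glycosylation list 28 of 35 genes fell and 4 rose with DTPA (23 and 4 under median-of-ratios scaling). Of all genes 42.1% fell and 23.5% rose with DTPA, and 32.2% and 32.5% under that scaling. Magt1, an oligosaccharyltransferase subunit gene, fell to 26.4 ± 1.23 TPM against 53.9 ± 2.40 TPM in control (-1.001, adjusted p = 1.63e-09), and Ssr1, of the translocon-associated complex, fell by 0.89 (adjusted p = 2.15e-08). Srp14 and Ssr4 rose by 0.51 each (adjusted p = 6.34e-08 and 1.43e-06). With SA 4 of the list fell, among them Sec61g (-0.23) and Dad1 (-0.16), and 2 rose, Krtcap2 (0.37) and Prkcsh (0.15). After median-of-ratios scaling 13 were lower and 1 higher with SA, the Prkcsh call being lost (adjusted p = 0.0734). On deposited TPM Krtcap2 was also the single gene of the list called with DFO (0.22, adjusted p = 0.0358), a call lost after median-of-ratios scaling (adjusted p = 0.13), where 5 genes were lower and none higher.

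Of 25 further degradation genes 15 fell and 6 rose with DTPA (10 lower and 8 higher under median-of-ratios scaling). These counts stand beside 42.1% of all genes lower and 23.5% higher, and 32.2% and 32.5% under that scaling. Ube2j1, a ubiquitin-conjugating enzyme gene, fell to 486 ± 3.22 TPM against 781 ± 10.8 TPM in control (-0.68, adjusted p = 1.65e-11), and Ube2g2 fell by 0.54. Herpud2, a relative of Herpud1, rose by 0.55 (adjusted p = 1.88e-08), and Ubxn8 by 0.41. Vcp, the ATPase gene whose product pulls clients out of the membrane, fell with SA by 0.35 (adjusted p = 1.8e-05), as did the gene of its cofactor Nploc4 by 0.30 (adjusted p = 1.86e-05), while Faf2 and Man1b1 rose by 0.16 and 0.11. With DFO Nploc4 (-0.13) and Ubxn4 (-0.07) fell and Man1b1 rose (0.13). After median-of-ratios scaling the rises of Faf2 and Man1b1 with SA (adjusted p = 0.0683 and 0.0804) and of Man1b1 with DFO (adjusted p = 0.0685) no longer passed, and the list held no gene higher with SA or DFO, against 8 and 5 lower.

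In the list of retrieval and export genes 12 of 18 fell and 2 rose with DTPA (10 and 3 under median-of-ratios scaling). The shares of all genes were 42.1% lower and 23.5% higher, and 32.2% and 32.5% under that scaling. Kdelr2, encoding a receptor that returns chaperones such as BiP from the Golgi, fell with each agent. It had 52.4, 52.0 and 52.7 TPM in DTPA libraries, 75.0, 75.4 and 77.2 in DFO libraries, 64.7, 56.5 and 61.1 in SA libraries, and 98.5, 96.7 and 100.3 in control libraries. The groups did not overlap, and the falls were -0.90 (adjusted p = 2.3e-09), -0.37 (adjusted p = 0.000274) and -0.69 (adjusted p = 8.6e-07). The cargo receptor gene Surf4 also fell with DFO (-0.14) and SA (-0.25), and Lman1 rose with DTPA (0.19), DFO (0.17) and SA (0.23), the DFO call of Lman1 being lost after median-of-ratios scaling (adjusted p = 0.113). Sec23b fell (-0.61) and Stx5a rose (0.48) with DTPA.

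Among the other sensor genes 5 of 7 fell and 1 rose with DTPA, and under median-of-ratios scaling 2 were lower and 1 higher. The shares of all genes were 42.1% lower and 23.5% higher, and 32.2% and 32.5% under that scaling. Bak1, encoding a BCL2 relative that binds IRE1, fell by 0.72 (adjusted p = 1.17e-08), Tmbim6 by 0.29 (adjusted p = 1.17e-06), and Mbtps1, encoding the protease that cuts ATF6, rose by 0.27 (adjusted p = 5.25e-06). Rtcb, the ligase gene that joins spliced Xbp1 mRNA, rose with DFO (0.12, adjusted p = 0.0117) and SA (0.14, adjusted p = 0.00221), and the DFO call was lost after median-of-ratios scaling (adjusted p = 0.17). Of 7 tested genes of calcium handling and membrane shape, 4 fell and 3 rose with DTPA, as under median-of-ratios scaling. The same shares of all genes stand beside these counts. Atl3, which shapes the tubular network, fell by 1.04 (adjusted p = 3.73e-10) and Reep5 by 0.83 (adjusted p = 1.3e-10), while Itpr2, a calcium release channel gene, rose to 59.1 ± 2.44 TPM against 21.1 ± 1.02 TPM in control (1.44, adjusted p = 6.11e-11).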

How the data were processed

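The authors deposited TPM values, 1 table for each library with rows named by gene symbol; per the submitters' processing notes they used HISAT2 2.1.0 on mm10, Trimmomatic 0.33, featureCounts, FastQC and edgeR, with settings, annotation release and strand use not given in the sources used here. Libraries were strand-specific mRNA libraries, per the labels' protocols. Groups came from titles and treatment tags; the protocol text names 50 µM DFO for the ALAD group where the titles and tags name SA, which were followed.

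Of the 55487 rows, 234 carried 1 of 114 repeated symbols and the copy with the highest mean was kept (Ddit3 is one). TPM times exon length (GENCODE M21, mm10) gave whole reads within 0.1 read for 98.8% to 99.0% of values up to 200 reads. No 2 libraries were identical, and replicates differed by more than sampling noise (chi-square per degree of freedom 2.04 to 5.61). limma 3.58.1 in R 4.3.3 was fitted to log2(TPM + 1) of all 12 libraries, with 1 mean per group and a mean-variance trend, two-sided, tested on simulated data first. The p-values measure the spread between libraries labelled biological replicates. Members and lists were chosen with earlier results of these data known. Members described in full were the called ones with the largest change, at most 10 per comparison with control, and a fixed set of central genes; of each pathway list at most the 2 largest rises and 2 largest falls per comparison among genes reaching a 5 TPM group mean, plus a fixed PERK set. The DTPA value of Erp29 was added after it was seen. Gene positions are those of GENCODE M21. Derl2, Pdia3, Pdia6, Ppib and Syvn1 overlap a protein-coding gene on the other strand, so their reads are uncertain where strand was not used. Median-of-ratios, trimmed-mean and gene-removal rescaling, pseudocounts of 0.1 and 5, filters, a replicate block, left-out libraries and limma's voom on the recovered reads (chosen after seeing the data) were the alternatives.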

Additional observations from a re-analysis of the deposited data

How the results depend on the processing

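Under each of the 11 settings and each left-out library, 20 of the 29 members called with DTPA kept their call. So did 8 of the 16 called with SA and none of the 3 called with DFO. The 96 member values against control gave 1056 values in the settings besides left-out libraries, of which 923 kept direction and side of the threshold, 36 passed where they had not, 48 no longer passed and 49 changed sign; with a library left out the 1152 values gave 1073, 7, 46 and 26. Of the sign changes 39 and 26 were of values that passed in no setting, with DFO or SA, and these lay within 0.0592 of 0 after the change. The cause was not tested. Median-of-ratios scaling gave 8 members higher and 15 lower with DTPA and 0 and 6 with DFO, 8 and 11 for DTPA against DFO, and 11 and 11 for DTPA against SA. It gave 424 genes higher and 638 lower with DFO, 1168 and 1558 with SA, 3798 higher for DTPA against DFO and 3793 for DTPA against SA, and 4 other pathway genes higher and 16 lower with DFO and 32 lower with SA. Trimmed-mean scaling gave members at 9 and 15, 0 and 6, 10 and 11, and 11 and 11 in those comparisons, genes at 424 and 634, 1180 and 1540, 3880 and 3855, and pathway genes at 4, 16 and 32. Removing globin, ribosomal protein and mitochondrially encoded genes gave 8 and 15 members with DTPA, 4 lower with DFO and 12 lower for DTPA against DFO. With DTPA, the log2 fold change of Atf6 turned to 0.0691, 0.0776 and 0.0505 and that of Os9 to 0.0745, 0.083 and 0.0559 under the 3 rescalings, and to 0.00959 and 0.0138 with voom; Dnajc10 turned to 0.0046 and Edem1 to 0.0031 under trimmed-mean scaling. Of printed values that passed nowhere, Ern1 with DFO turned to -0.0527, -0.0526 and -0.0058 under the 3 rescalings and -0.02004 with voom, and Pdia3 to -0.0472, -0.0472 and -0.0137 with DFO and -0.0473, -0.0464 and -0.0106 with SA under median-of-ratios scaling, trimmed-mean scaling and voom. With a library left out, Ern1 with DFO ran from -0.0592 to 0.0371, Pdia3 from -0.0096 to 0.0156 with DFO and from -0.0102 to 0.0215 with SA, and Creld2 with SA from -0.0861 to 0.0068. No filter gave 1 member lower and 6 pathway genes higher with DFO. Only the 6 libraries compared gave 0 members lower, 613 genes higher and 5 pathway genes higher with DFO, 6 members lower with SA and 1 lower for DFO against SA. Voom on recovered reads, chosen after seeing the data, gave 4 members, 498 genes and 9 pathway genes lower with DFO, 14 members lower for DTPA against DFO and 4 for DFO against SA.

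With each library left out, DFO against control called 0 to 1 members higher and 1 to 3 lower, 634 to 979 genes higher and 172 to 271 lower, and 2 to 5 pathway genes lower; SA called 6 to 10 members lower; DFO against SA called 1 to 3 members higher and 1 to 2 lower and 500 to 746 genes lower. Same-number deviations correlated at only -0.04 to 0.05 between groups, and 6 of 12 libraries correlated best with their own number. Whether this departs from unpaired libraries was not tested. The fit with the replicate block gave 1 member lower with DFO and 1 lower for DFO against SA. Among tested members Creld2 had the fewest reads, 136 in its lowest library, and the widest SE with DTPA (0.097).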
